A study of Mus musculus with 8 samples.

Results

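The 10 mouse genes described here encode amino acid transporters: the CD98 heavy chain Slc3a2, the light chains Slc7a5, Slc7a6, Slc7a10 and Slc7a11, the glutamine carriers Slc1a5, Slc38a1 and Slc38a2, the cationic amino acid transporter Slc7a1 and the neutral amino acid transporter Slc43a1. They were found by gene symbol among the 27594 genes of the count table, and 14540 of those genes passed the filter on low counts. Of the 10 transporter genes, 9 passed it, and Slc7a11 did not. Slc7a10 was selected on its measured levels, because an earlier look at these data had shown it only in aTreg cells, so its aTreg and rTreg levels are given as a description with no test.

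RNA was measured in resting Treg (rTreg) cells, sorted from CD4+ YFP+ cells as CD44 low, and in activated Treg (aTreg) cells, sorted from them as CD44 high, each gated on a further surface marker as well, from spleen and peripheral lymph nodes of C57BL/6 mice aged 6 to 8 weeks. All mice carried the Foxp3-YFP-Cre allele, which drives a YFP-Cre fusion from the Foxp3 gene. WT mice carried this allele alone (Foxp3Cre), and Foxp1-deficient mice also carried the floxed allele Foxp1fl/fl (Foxp1f/fFoxp3Cre), so Cre acted in cells that express or had expressed Foxp3. Each of the 4 groups had 2 libraries. Nothing in the labels says whether the replicates came from separate mice or pools. The p-values therefore measure the spread left between these libraries once the replicate number is fitted, estimated over all 4 groups.

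T cells take up most large neutral amino acids, glutamine and cationic amino acids through solute carriers of the plasma membrane. Slc3a2 is a single-pass glycoprotein that binds a light chain of the SLC7 family and brings it to the cell surface, and the light chain sets which amino acids are exchanged. Slc7a5 carries leucine and other large neutral amino acids, Slc7a6 exchanges cationic for neutral amino acids, Slc7a10 carries small neutral amino acids such as serine, glycine and alanine, and Slc7a11 takes up cystine in exchange for glutamate. Slc1a5 exchanges small neutral amino acids, glutamine among them, while Slc38a1 and Slc38a2 take up glutamine and alanine together with sodium. The uptake of leucine, glutamine and arginine is known to feed mTORC1, a kinase complex on the lysosome that promotes protein synthesis and growth.

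The 250 bases before the start of Slc7a10, Slc38a2 and Slc7a11 are shown because Slc7a10 differed most between the subsets, Slc38a2 was the transporter that passed the genotype test, and Slc7a11 was at 0 to 2 counts in every library. The bases are from RefSeq (GRCm38.p6), where 7 of the 10 genes were matched in the table used here, and run 5′ to 3′ along the gene. Capitals mark matches to the searched motifs on either strand.
Slc7a10, chr7:35186135-35186384, + strand: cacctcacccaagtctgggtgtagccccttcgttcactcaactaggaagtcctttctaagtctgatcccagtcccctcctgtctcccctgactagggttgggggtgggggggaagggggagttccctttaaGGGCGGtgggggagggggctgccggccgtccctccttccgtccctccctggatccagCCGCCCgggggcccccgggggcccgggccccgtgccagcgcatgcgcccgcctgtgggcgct
Slc38a2, chr15:96699729-96699978, - strand: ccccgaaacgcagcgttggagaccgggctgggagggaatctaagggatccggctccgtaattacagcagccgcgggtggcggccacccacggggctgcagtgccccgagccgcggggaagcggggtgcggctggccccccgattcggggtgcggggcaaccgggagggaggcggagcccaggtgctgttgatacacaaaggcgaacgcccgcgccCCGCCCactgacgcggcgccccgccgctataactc
Slc7a11, chr3:50443614-50443863, - strand: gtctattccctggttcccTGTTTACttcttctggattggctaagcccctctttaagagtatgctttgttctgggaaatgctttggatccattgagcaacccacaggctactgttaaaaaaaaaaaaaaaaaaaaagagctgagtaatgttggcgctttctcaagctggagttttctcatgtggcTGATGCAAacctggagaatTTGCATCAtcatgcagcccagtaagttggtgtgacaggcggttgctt
The motifs searched were a forkhead motif (GTAAACA), an amino acid response element (TGATGNAA), an E-box (CACGTG), an AP-1 motif (TGANTCA) and a GC box (GGGCGG). None of the marked matches overlaps another. The window of Slc7a11 held 1 forkhead match, a motif found in 3.17% of 32851 such windows, and 2 amino acid response element matches, a motif found in 3.45%. The windows of Slc7a10 and Slc38a2 held 2 and 1 GC boxes, which 32.7% of all windows held, and no match to the other letters. Their GC content was 69.6% and 72.0%, against 43.2% for Slc7a11 and a median of 52.4% over all windows. A match says only that the letters stand in the window.

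Total counts ran from 6373170 to 15268623 per library. A level of 3 counts, taken as the floor, equalled 0.192 to 0.478 CPM, the read count scaled to the size of the library. In a check of the sort, Cd44 was at 35.1 and 45.3 CPM in WT rTreg cells and at 213 and 214 CPM in WT aTreg cells. In Foxp1-deficient cells it was at 29.6 and 30.3 CPM in rTreg and 174 and 197 CPM in aTreg cells. Between genotypes Cd44 was −0.43 on the log2 scale in rTreg (adjusted p = 0.0339, edgeR) and −0.21 in aTreg cells (0.206). Foxp3 was at 429 CPM or more in every library. Between genotypes it was −0.32 in rTreg (adjusted p = 0.0496, edgeR) and 0.02 in aTreg cells (0.930). Foxp1 was at 234 and 230 CPM in WT aTreg cells and at 126 and 102 CPM in Foxp1-deficient aTreg cells (log2 fold change −1.03, SE 0.096, adjusted p = 0.00194, edgeR). In rTreg cells it was at 353 and 384 CPM in WT and at 342 and 338 CPM in Foxp1-deficient cells (log2 fold change −0.12, SE 0.094, adjusted p = 0.460). The log2 fold change of Foxp1 in aTreg minus that in rTreg cells was −0.92 (adjusted p = 0.0477, edgeR). Counts over the whole gene do not resolve a deleted exon, and the Foxp1 counts of the rTreg libraries did not check their labels. The cause of the difference between the subsets was not tested. The replicate number went with the sex of the mice, since Xist was at 1142 CPM or more in the libraries numbered 2 and at 0.276 CPM or less in those numbered 1. The tests compare libraries of the same number, and sex and any batch that goes with the number cannot be told apart.

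Per length, Slc1a5 was the most abundant of the 10 transporters in all 4 groups, at 85.7 ± 1.4 FPKM (SD, n = 2) in WT rTreg cells. FPKM are fragments scaled by gene length and library size, as deposited, and allow levels to be compared between genes. In WT rTreg cells Slc38a2 followed at 65.9 ± 11.8 FPKM, then Slc3a2 at 34.2 ± 6.0, Slc7a5 at 25.2 ± 6.2, Slc38a1 at 19.7 ± 1.8, Slc7a6 at 14.9 ± 0.37, Slc7a1 at 10.4 ± 0.61 and Slc43a1 at 0.565 ± 0.0041 FPKM. The libraries of Slc7a5 and Slc38a1 overlapped in that order, and those of the other named neighbours did not. In WT aTreg cells the order was Slc1a5 at 109 ± 9.2 FPKM, Slc38a2 at 48.1 ± 7.9, Slc3a2 at 40.4 ± 9.6, Slc38a1 at 27.1 ± 1.4, Slc7a5 at 17.0 ± 3.0, Slc7a6 at 16.4 ± 0.62, Slc7a10 at 8.94 ± 4.22, Slc7a1 at 8.87 ± 0.69 and Slc43a1 at 2.02 ± 0.012 FPKM (SD, n = 2). There Slc38a2 overlapped Slc3a2, Slc7a5 overlapped Slc7a6, and Slc7a10 overlapped Slc7a1.

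**Figure D1:**
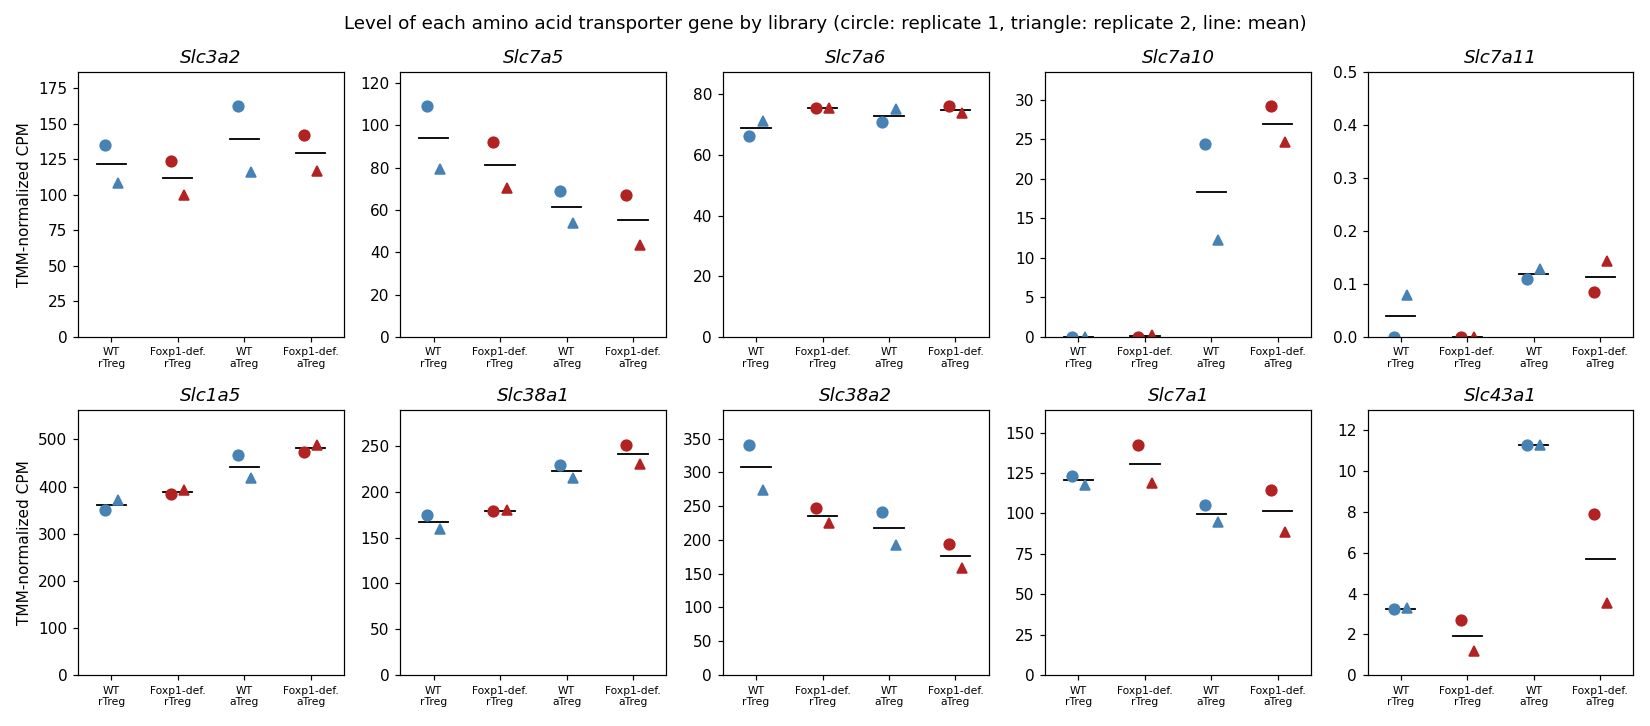
Level of each of the 10 transporter genes in the 8 libraries, in TMM-normalized CPM on axes that start at 0. Circles are replicate 1, triangles replicate 2, and lines the mean of the 2 libraries. Slc7a10 is at 0 to 0.217 CPM in the 4 rTreg libraries and at 12.3 to 29.2 CPM in the 4 aTreg libraries, and Slc7a11 stays under 0.15 CPM.

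The transporters differed between aTreg and rTreg cells in both directions. In WT cells 6 of the 8 tested transporters other than Slc7a10 passed an adjusted p of 0.05, 3 higher and 3 lower in aTreg cells, against 31.9% of all genes tested (18.2% higher, 13.6% lower). In Foxp1-deficient cells 7 of the 8 passed, 4 higher and 3 lower, against 40.1% of all genes (21.9% higher, 18.2% lower). Only Slc43a1 also changed 2-fold in each genotype, against 12.3% of all genes in WT and 15.7% in Foxp1-deficient cells. The median log2 difference of the 8 was 0.13 in WT and 0.10 in Foxp1-deficient cells, and that of all genes was −0.0046 and −0.018.

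Of the CD98 complex, the leucine-carrying light chain Slc7a5 was lower in aTreg cells of both genotypes. The heavy chain passed as higher in Foxp1-deficient aTreg cells, and missed the threshold in WT cells. Both sides of that threshold moved with the method, since DESeq2 gave an adjusted p of 0.0812 in Foxp1-deficient cells and log2 of FPKM plus 1 or plus 0.1 gave 0.0375 or 0.0379 in WT cells. Slc3a2 (chr19:8706882-8723369, - strand) was at 135 and 108 CPM in WT rTreg, 124 and 99.9 in Foxp1-deficient rTreg, 162 and 116 in WT aTreg and 142 and 116 in Foxp1-deficient aTreg cells. All 4 ranges overlap, because replicate 1 was higher than replicate 2 in every group, but both pairs were higher in aTreg cells in each genotype. The log2 difference was 0.21 (SE 0.069, adjusted p = 0.0455) in Foxp1-deficient cells and 0.18 (SE 0.069, adjusted p = 0.0797) in WT cells, which did not pass.

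Slc7a5 (chr8:121881150-121907694, - strand) was at 109 and 79.4 CPM in WT rTreg, 92.3 and 70.2 in Foxp1-deficient rTreg, 68.9 and 53.7 in WT aTreg and 67.1 and 43.2 in Foxp1-deficient aTreg cells. Every aTreg library was below every rTreg library. The log2 difference was −0.61 (SE 0.078, adjusted p = 0.000880) in WT and −0.58 (SE 0.079, adjusted p = 0.000890) in Foxp1-deficient cells. Slc7a6 (chr8:106168857-106198706, + strand) was at 66.4 and 71.1, 75.4 and 75.5, 70.8 and 75.1, and 76.0 and 74.0 CPM in the same order of groups. Its aTreg against rTreg difference was 0.09 on the log2 scale in WT (95% interval −0.06 to 0.24, adjusted p = 0.348) and −0.0078 in Foxp1-deficient cells (−0.16 to 0.14, adjusted p = 0.939).

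Slc7a10 (chr7:35186385-35201114, + strand) had 0 and 0 counts in WT rTreg, 0 and 3 in Foxp1-deficient rTreg, 223 and 192 in WT aTreg and 348 and 343 in Foxp1-deficient aTreg cells. These were 24.5 and 12.3 CPM in WT aTreg and 29.2 and 24.7 CPM in Foxp1-deficient aTreg cells. Against the floor of 3 counts per library, the mean aTreg level was at least 71.8-fold higher than that of rTreg cells in WT and at least 77.5-fold higher in Foxp1-deficient cells. Since it was chosen for this pattern, the pattern was not tested.

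The stretch around Slc7a10 holds other genes with the same distribution over the libraries, which were picked as its neighbours on the chromosome after their values were seen. Lrp3, a lipoprotein receptor-related gene on the opposite strand, overlaps Slc7a10 by 1088 bp, and the 377 exon bases they share are 17.9% of the exon length of Slc7a10. The reads came from a non-directional kit, so those on the shared bases cannot be assigned to either gene by strand. Lrp3 had 0 and 0 counts in WT rTreg, 1 and 0 in Foxp1-deficient rTreg, 40 and 40 in WT aTreg and 61 and 42 in Foxp1-deficient aTreg cells. Cebpa, which encodes a myeloid transcription factor and lies 64456 bp from Slc7a10, had 4 and 3, 1 and 21, 441 and 349, and 621 and 594 counts in the same order. The next genes on either side were present in all groups: Cebpg was at 36.7 to 66.6 CPM and Gpatch1 at 22.1 to 26.4 CPM.

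Because SLC7 light chains share Slc3a2, their FPKM can be added and compared with it. The summed FPKM of Slc7a5, Slc7a6, Slc7a7, Slc7a8 and Slc7a10 was 40.5 ± 6.0 (SD, n = 2) in WT rTreg, 38.3 ± 4.5 in Foxp1-deficient rTreg, 42.9 ± 7.0 in WT aTreg and 45.1 ± 7.7 in Foxp1-deficient aTreg cells. Slc7a5 made up 66.2% and 57.6% of that sum in WT rTreg, 59.1% and 51.9% in Foxp1-deficient rTreg, 40.0% and 39.0% in WT aTreg and 36.8% and 28.9% in Foxp1-deficient aTreg cells. Slc7a10 made up 24.9% and 15.7% in WT aTreg and 28.1% and 28.9% in Foxp1-deficient aTreg cells, against 0.281% or less in rTreg cells. The light chain sum overlapped between all groups and so did the share of Slc7a6, at 32.7% to 45.3% in rTreg and 33.3% to 44.3% in aTreg cells, while the shares of Slc7a5 and Slc7a10 did not overlap between the subsets. The ratio of Slc3a2 to the sum lay between 0.776 and 0.988 in the 8 libraries. These are shares of transcripts chosen in part by the level of Slc7a10, and no test was made.

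**Figure D2:**
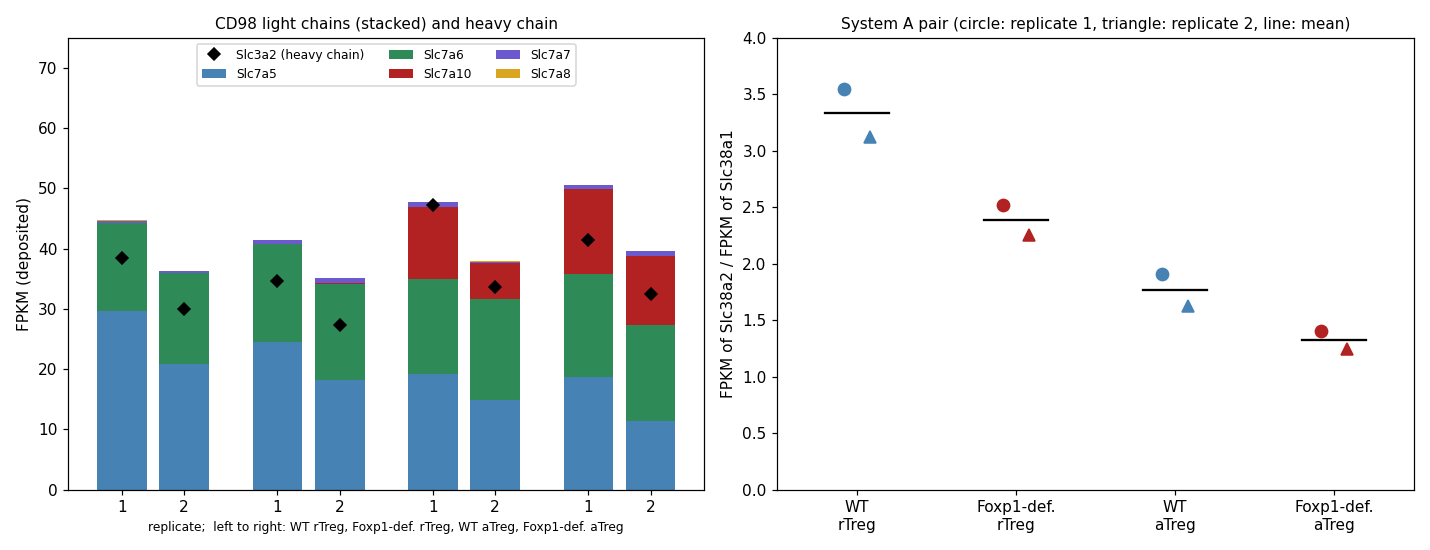
Left, FPKM of the light chains stacked per library, with Slc3a2 as diamonds, and right, the ratio of Slc38a2 to Slc38a1 FPKM, both on axes that start at 0. The light chain sum is 35.1 to 50.5 FPKM in all libraries, with Slc7a10 taking 15.7% to 28.9% of it in aTreg cells, and the Slc38a2 to Slc38a1 ratio falls from 3.55 in the highest WT rTreg library to 1.24 in the lowest Foxp1-deficient aTreg library.

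Of the glutamine carriers, Slc1a5 and Slc38a1 were higher in aTreg cells and Slc38a2 was lower. Slc1a5 (chr7:16781340-16798274, + strand) was at 351 and 371 CPM in WT rTreg, 384 and 393 in Foxp1-deficient rTreg, 467 and 417 in WT aTreg and 474 and 489 in Foxp1-deficient aTreg cells, and every aTreg library was above every rTreg library. The log2 difference was 0.29 (SE 0.069, adjusted p = 0.0148) in WT and 0.31 (SE 0.069, adjusted p = 0.00890) in Foxp1-deficient cells.

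Slc38a1 (chr15:96571418-96642913, - strand) was at 174 and 159 CPM in WT rTreg, 179 and 180 in Foxp1-deficient rTreg, 229 and 215 in WT aTreg and 251 and 230 in Foxp1-deficient aTreg cells. Here too the subsets did not overlap. The log2 difference was 0.42 (SE 0.061) in each genotype, with adjusted p = 0.00170 in WT and 0.00119 in Foxp1-deficient cells.

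Slc38a2 (chr15:96687392-96699730, - strand) was at 341 and 274 CPM in WT rTreg, 248 and 224 in Foxp1-deficient rTreg, 242 and 193 in WT aTreg and 194 and 158 in Foxp1-deficient aTreg cells. Within each genotype the aTreg libraries were below the rTreg libraries, with a log2 difference of −0.50 (SE 0.065, adjusted p = 0.000943) in WT and −0.43 (SE 0.065, adjusted p = 0.00145) in Foxp1-deficient cells. Slc38a1 and Slc38a2 lie 44478 bp apart with 0 protein-coding genes between them, and changed in opposite directions between the subsets. The ratio of Slc38a2 to Slc38a1 FPKM was 3.55 and 3.13 in WT rTreg, 2.52 and 2.26 in Foxp1-deficient rTreg, 1.91 and 1.62 in WT aTreg and 1.40 and 1.24 in Foxp1-deficient aTreg cells, with no overlap between the 4 groups.

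Slc7a1 (chr5:148327410-148399904, - strand), the main arginine and lysine carrier of most cells, was at 123 and 117 CPM in WT rTreg, 142 and 119 in Foxp1-deficient rTreg, 105 and 94.6 in WT aTreg and 114 and 88.7 in Foxp1-deficient aTreg cells. All aTreg libraries were below all rTreg libraries, by −0.27 on the log2 scale (SE 0.080, adjusted p = 0.0341) in WT and −0.37 (SE 0.080, adjusted p = 0.00814) in Foxp1-deficient cells. Slc43a1 (chr2:84838850-84863594, + strand), which carries large neutral amino acids without a heavy chain, was far less abundant, with 35 and 42 counts in WT rTreg, 17 and 16 in Foxp1-deficient rTreg, 103 and 176 in WT aTreg and 94 and 49 in Foxp1-deficient aTreg cells. It was 3.22 and 3.30, 2.71 and 1.16, 11.3 and 11.3, and 7.88 and 3.52 CPM in the same order, and was higher in aTreg cells by 1.80 on the log2 scale (SE 0.33, adjusted p = 0.00519) in WT and 1.63 (SE 0.40, adjusted p = 0.0143) in Foxp1-deficient cells. Slc7a11 (chr3:49892526-50443614, - strand) had 0 to 2 counts in every library, at or under the floor of 3 counts, so no fold could be given and a difference was not detectable at this depth.

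**Figure D3:**
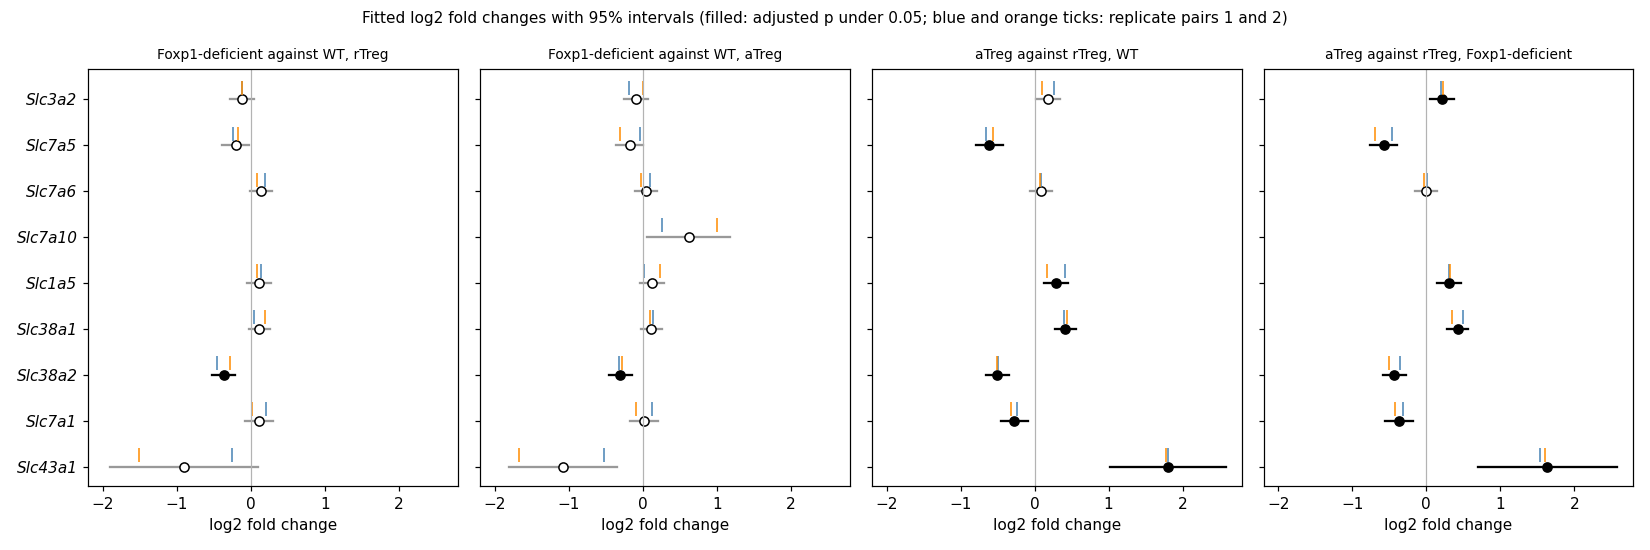
Fitted log2 fold change of each tested transporter in the 4 comparisons, with 95% intervals. Filled points passed an adjusted p of 0.05, and blue and orange ticks give the log2 ratios of replicate pairs 1 and 2. Slc38a2 is the single filled point in each genotype panel, at −0.37 in rTreg and −0.30 in aTreg cells. Slc7a10 is drawn only where a test was made.

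The subset calls of Slc38a1 held in every alternative tried, and those of Slc7a5 and Slc38a2 held in every fit with 1 library left out, but not in the fit without the replicate block. Without it (edgeR) Slc7a5 had an adjusted p of 0.160 in WT and 0.175 in Foxp1-deficient cells, and Slc38a2 of 0.0832 and 0.108. Slc1a5 (0.0615) and Slc7a1 (0.260) in WT were also lost without the block. In Foxp1-deficient cells so were Slc3a2 (0.507), Slc7a1 (0.113) and Slc43a1 (0.0509). Besides Slc38a1, Slc43a1 in WT (0.0368) and Slc1a5 in Foxp1-deficient cells (0.0389) still passed. With log2 of FPKM plus 1 and no filter (limma), Slc43a1 was lost in both genotypes (0.0589 and 0.150). In WT cells, 3 of the 8 passed without WT rTreg replicate 1, where Slc1a5 (0.111), Slc7a1 (0.0502) and Slc43a1 (0.0543) were lost, and Slc1a5 was also lost without WT aTreg replicate 1 (0.108). Slc7a1 in WT was lost when any 1 of the 4 WT or the 2 Foxp1-deficient rTreg libraries was left out (adjusted p between 0.0502 and 0.307) and in each FPKM setting (0.147 to 0.241), and Slc3a2 passed without WT aTreg replicate 2 (0.0426). In Foxp1-deficient cells, 4 of the 8 passed when rTreg replicate 1, rTreg replicate 2 or aTreg replicate 2 was left out. Slc3a2 was lost in 6 of the 8 such fits, all but those without a WT aTreg library (0.0550 to 0.230), and Slc1a5 without rTreg replicate 1 (0.0631), rTreg replicate 2 (0.0524) or aTreg replicate 2 (0.0707). Slc7a1 was lost without Foxp1-deficient rTreg replicate 1 (0.0788) or aTreg replicate 2 (0.0752), and Slc43a1 without rTreg replicate 2 (0.142) or aTreg replicate 1 (0.0924).

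Markers of other cell types moved with the subset. The summed level of 10 B and plasma cell genes was 9.74 to 10.7 CPM in WT rTreg, 15.2 to 19.8 in Foxp1-deficient rTreg, 36.5 to 42.4 in WT aTreg and 38.0 to 49.4 in Foxp1-deficient aTreg cells, with 1, 1, 1 and 0 of the genes at 0 in both libraries. The 8 stroma and endothelium genes, led by Pecam1, summed to 258 to 294 CPM in rTreg and 117 to 133 CPM in aTreg libraries, with 1 or 2 of them at 0 in each group. Pecam1 alone had a mean of 197 CPM over all libraries, so this sum mostly follows that gene and not the list. The 9 NK and CD8 T cell genes, none at 0, summed to 31.7 to 32.2 CPM in WT rTreg and 39.0 to 46.0 in WT aTreg, and to 27.6 to 29.6 in Foxp1-deficient rTreg and 33.5 to 37.0 in Foxp1-deficient aTreg cells. The part of these markers in the subset differences was not tested. The 9 markers of myeloid and dendritic cells in the table summed to 8.01 to 12.6 CPM in all libraries. Fewer cells of a kind and less RNA per cell cannot be told apart in these bulk samples.

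Between genotypes, Slc38a2 was lower in Foxp1-deficient cells of both subsets, and no other transporter passed. In rTreg cells 1 of 8 passed (edgeR, adjusted p under 0.05), against 12.0% of all genes tested (6.57% higher, 5.45% lower), and in aTreg cells 1 of 9, against 6.88% of all genes (4.11% higher, 2.77% lower). None of them also reached the 1.5-fold change used between genotypes, which 5.60% of all genes did in rTreg and 4.03% in aTreg cells. The median log2 change was −0.0069 over the 8 transporters in rTreg and 0.016 over the 9 in aTreg cells, beside 0.0029 and 0.0018 over all genes. At an unadjusted p under 0.05 there were 2 of 8 in rTreg and 3 of 9 in aTreg cells, against 28.5% and 23.3% of all genes. The 9 include Slc7a10, which is also among the 3. It was selected on its levels and passed the filter on low counts only through its aTreg libraries.

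In rTreg cells Slc38a2 fell from 307 ± 48 to 236 ± 16 CPM (SD, n = 2), with no overlap between the groups. The log2 fold change was −0.37 (SE 0.065, adjusted p = 0.0125, edgeR), and −0.46 and −0.29 in replicate pairs 1 and 2. In aTreg cells it fell from 217 ± 35 to 176 ± 26 CPM, and the Foxp1-deficient library of replicate 1 (194 CPM) overlapped the WT library of replicate 2 (193 CPM). The log2 fold change there was −0.30 (SE 0.065, adjusted p = 0.0352), and −0.32 and −0.29 in the pairs. Without the replicate block the adjusted p was 0.301 in rTreg and 0.530 in aTreg cells. The rTreg call was lost without WT rTreg replicate 1 (adjusted p = 0.0884), WT rTreg replicate 2 (0.0692) or Foxp1-deficient rTreg replicate 1 (0.0851). The aTreg call was lost without WT rTreg replicate 1 (0.0624) or 2 (0.0584), WT aTreg replicate 1 (0.147) or 2 (0.112), or Foxp1-deficient aTreg replicate 1 (0.113) or 2 (0.241).

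The CD98 genes and the other glutamine carriers did not pass between genotypes. Slc7a5 was −0.21 on the log2 scale in rTreg (95% interval −0.39 to −0.03, adjusted p = 0.128) and −0.17 in aTreg cells (−0.36 to 0.0092, adjusted p = 0.236). Slc3a2 was −0.12 (−0.28 to 0.04, adjusted p = 0.309) and −0.09 (−0.25 to 0.07, adjusted p = 0.466), and Slc7a6 was 0.13 (−0.02 to 0.28, adjusted p = 0.228) and 0.04 (−0.11 to 0.19, adjusted p = 0.774). These intervals leave out changes of 1.5-fold in either direction. The same holds for Slc1a5, at 0.11 (−0.05 to 0.27) in rTreg and 0.12 (−0.04 to 0.28) in aTreg cells, for Slc38a1, at 0.11 (−0.03 to 0.25) and 0.12 (−0.03 to 0.26), and for Slc7a1, at 0.11 (−0.07 to 0.30) and 0.016 (−0.17 to 0.20), where adjusted p-values ran from 0.289 to 0.930.

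Slc7a10 and Slc43a1 had the widest intervals of the tested transporters. Slc7a10 was higher in both Foxp1-deficient aTreg libraries (29.2 and 24.7 CPM) than in both WT aTreg libraries (24.5 and 12.3 CPM), by 0.25 and 1.00 on the log2 scale in pairs 1 and 2. Its fitted log2 fold change was 0.62 (95% interval 0.06 to 1.18, adjusted p = 0.173), so neither a change near 0 nor a rise past 2-fold was left out. Slc43a1 was lower in both Foxp1-deficient libraries of each subset, at −0.90 on the log2 scale in rTreg (−1.90 to 0.10, adjusted p = 0.219) and −1.07 in aTreg cells (−1.80 to −0.34, adjusted p = 0.0882). Both passed in aTreg cells in the fit without a filter on low counts (adjusted p = 0.0275 for Slc7a10 and 0.00466 for Slc43a1). In rTreg cells Slc7a10 was at or under the floor in both genotypes and has no fold.

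Whether the genotype effect differed between the subsets was tested with an interaction term. None of the 8 transporters with a value in all groups passed by edgeR, DESeq2 or limma-voom, against 0.330% of all genes tested by edgeR, and 0 had an unadjusted p under 0.05 by edgeR, against 12.8% of all genes. The adjusted p-values ran from 0.738 to 0.995. For Slc38a2 the log2 fold change in aTreg minus that in rTreg cells was 0.07 (95% interval −0.14 to 0.28), and for Slc43a1 it was −0.17 (−1.45 to 1.11).

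Markers of granulocytes were higher in Foxp1-deficient rTreg cells, and unevenly so in Foxp1-deficient aTreg cells. The 10 genes summed to 0.157 to 1.66 CPM in WT rTreg, 8.88 to 20.9 in Foxp1-deficient rTreg, 3.07 to 4.36 in WT aTreg and 4.60 to 35.0 in Foxp1-deficient aTreg cells, with 5, 1, 2 and 0 of them at 0 in both libraries. Mpo, which encodes myeloperoxidase, had 0 and 0 counts in WT rTreg and 25 and 36 in Foxp1-deficient rTreg cells. In aTreg cells it had 3 and 4 counts in WT and 68 and 14 in Foxp1-deficient cells. Their part in the genotype differences was not tested.

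Genes that act beside the transporters were grouped by role and counted in the genotype comparisons by edgeR. Of all genes tested, 12.0% passed in rTreg and 6.88% in aTreg cells. Arginine and polyamine genes passed in 4 of 13 in rTreg (3 higher, 1 lower) and in 3 of 13 in aTreg cells (all higher in Foxp1-deficient cells), with a median log2 change of 0.02 and 0.15. DESeq2 called 4 and 2 of the 13, and limma-voom 4 and 3. Oaz2, which encodes an antizyme that limits polyamine synthesis, rose from 32.3 and 38.1 to 64.5 and 66.3 CPM in rTreg cells (log2 fold change 0.89, adjusted p = 0.00208) and from 67.1 and 60.5 to 98.8 and 106 CPM in aTreg cells (0.69, adjusted p = 0.00644). Asl, which makes arginine from argininosuccinate, rose by 0.49 in rTreg (adjusted p = 0.00827) and 0.33 in aTreg cells (0.0385). Sat1, which acetylates polyamines for export, was −0.47 in rTreg cells (adjusted p = 0.0182), and Azin1, an antizyme inhibitor, was 0.34 in aTreg cells (0.0480).

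Cytosolic aminoacyl-tRNA synthetases, which charge tRNAs with amino acids, were higher in Foxp1-deficient cells in 4 of 20 in rTreg and 2 of 20 in aTreg cells, and 0 were lower, with a median log2 change of 0.10 and 0.11. Of all genes tested, 6.57% were higher in rTreg and 4.11% in aTreg cells. DESeq2 called 3 and 1 of the 20, and limma-voom 4 and 1. Between subsets 6 of the 20 in WT and 5 of the 20 in Foxp1-deficient cells were lower in aTreg cells (3 and 5 by DESeq2) and 0 were higher, against 13.6% lower and 18.2% higher of all genes in WT and 18.2% and 21.9% in Foxp1-deficient cells. Aars, the alanine enzyme, rose by 0.45 in rTreg (adjusted p = 0.0102) and 0.32 in aTreg cells (0.0404), and Hars, the histidine enzyme, by 0.36 (0.0240) and 0.32 (0.0444). Kars, the lysine enzyme, rose by 0.32 in rTreg cells (adjusted p = 0.0196).

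Of 37 genes of amino acid sensing upstream of mTORC1, 6 passed in rTreg cells (4 higher, 2 lower) and 2 in aTreg cells (both lower), with a median log2 change of −0.0084 and 0.0019. These shares, 16.2% and 5.41%, were near the 12.0% and 6.88% of all genes tested. DESeq2 called 3 and 2 of the 37, and limma-voom 4 and 2. The sestrins, which restrain mTORC1 when leucine is scarce, did not change in 1 direction. Sesn1 was at 154 and 206 CPM in WT rTreg, 89.6 and 103 in Foxp1-deficient rTreg, 117 and 145 in WT aTreg and 52.7 and 70.2 in Foxp1-deficient aTreg cells, with log2 fold changes of −0.89 (SE 0.073, adjusted p = 0.000698) and −1.10 (SE 0.074, adjusted p = 0.000598). Sesn2 rose in rTreg cells from 7.55 and 8.96 to 12.3 and 19.1 CPM (0.95, adjusted p = 0.0152), and Sesn3 was −0.25 in aTreg cells (adjusted p = 0.0289). Kptn, a subunit of a complex that holds the GATOR1 inhibitor on the lysosome, was 0.49 in rTreg cells (adjusted p = 0.0489).

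Of 20 genes of the amino acid response driven by ATF4, 5 passed in rTreg cells (3 higher, 2 lower) and 0 in aTreg cells by edgeR, DESeq2 or limma-voom, where 6 had an unadjusted p under 0.05. Of all genes tested, 12.0% passed in rTreg and 6.88% in aTreg cells by edgeR. The median log2 change of the 20 was 0.0023 in rTreg and −0.012 in aTreg cells. Sesn2 is also on this list. Eif4ebp1, a translation repressor controlled by mTORC1, was −0.96 in rTreg cells (adjusted p = 0.0140), and Cebpb, a transcription factor, was 0.69 (0.0190). Of 19 glutamine and glutamate genes 4 were lower and 0 higher in Foxp1-deficient rTreg cells by edgeR, and 0 passed in aTreg cells by edgeR, DESeq2 or limma-voom, with 3 at an unadjusted p under 0.05. In rTreg cells limma-voom called 4 of the 19 and DESeq2 only 2. Of all genes tested, 5.45% were lower and 6.57% higher there by edgeR. The list as a whole did not fall in rTreg cells, with a median log2 change of 0.013 and 10 of the 19 above 0. Among the 4 called by edgeR were Gfpt1, the first enzyme of hexosamine synthesis, at −0.30 (adjusted p = 0.0215), Glul, glutamine synthetase, at −0.25 (0.0479), and Gfpt2, which had 15 and 11 counts in WT rTreg and 1 and 3 in Foxp1-deficient rTreg cells, at the floor.

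In the other lists few genes passed between genotypes by edgeR, beside 12.0% of all genes tested in rTreg and 6.88% in aTreg cells. Of 13 serine, glycine and alanine genes, Phgdh alone passed in rTreg cells, at 0.29 (adjusted p = 0.0261). It encodes the first enzyme of serine synthesis. Of 14 genes of branched chain amino acid breakdown, Bckdk, the kinase that switches off the branched chain ketoacid dehydrogenase, was 0.41 in rTreg cells (adjusted p = 0.0453), and Bckdhb, a subunit of that enzyme, was −0.66 in aTreg cells (0.0458). DESeq2 called 0 of these 14 in either subset, and limma-voom 1 in each. Of 11 lysosomal transporters, Slc15a3, a histidine and peptide carrier, was 1.31 in aTreg cells (adjusted p = 0.0421), and it was at 10.5 and 5.64 CPM in WT and 15.9 and 22.6 CPM in Foxp1-deficient aTreg cells. With 1 library left out its log2 fold change ran from 0.66 without WT aTreg replicate 2 (adjusted p = 0.250) to 1.95 without WT aTreg replicate 1 (0.00640), it was 0.76 without Foxp1-deficient aTreg replicate 2 (0.353), and it passed in 2 of the 8 such fits. Among 13 cystine and glutathione genes 0 passed in either subset by edgeR, DESeq2 or limma-voom, with 5 in rTreg and 7 in aTreg cells at an unadjusted p under 0.05. Of the 14 tested transporters of the plasma membrane outside the CD98 family, Slc38a2 alone passed between genotypes, while 8 passed between subsets in each genotype (6 higher, 2 lower in aTreg cells), against 31.9% of all genes in WT and 40.1% in Foxp1-deficient cells. This list includes transporters already described above, Slc38a2 among them, so its counts are not separate from theirs. Of the 16 named rTreg and 9 named aTreg calls in these lists, 2 and 0 passed without the replicate block, namely Oaz2 (adjusted p = 0.0150) and Eif4ebp1 (0.0475) in rTreg cells, and only Sesn1 in both subsets and Oaz2 in rTreg cells passed in all 8 fits with 1 library left out.

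**Figure D4:**
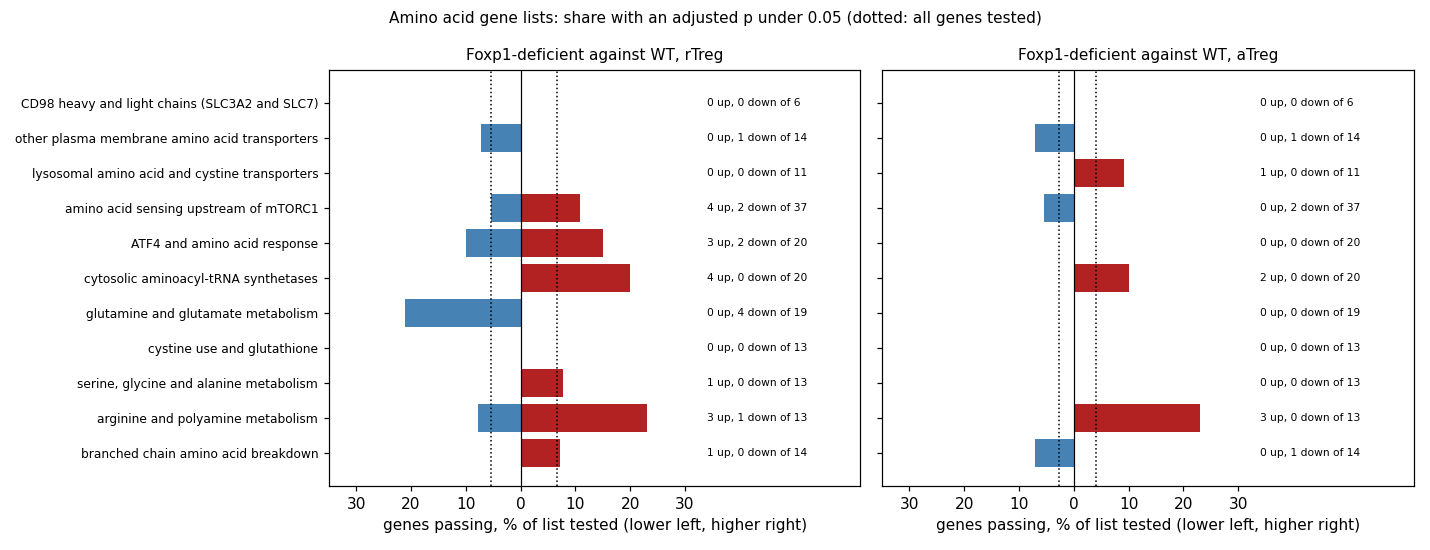
Share of the tested genes of each amino acid list that passed an adjusted p of 0.05 between genotypes, with genes lower in Foxp1-deficient cells to the left and higher to the right, and the counts printed beside. Dotted lines give the share of all tested genes in each direction, 5.45% lower and 6.57% higher in rTreg and 2.77% and 4.11% in aTreg cells. The glutamine list has 4 lower and 0 higher genes in rTreg cells, at a median log2 change of 0.013 over the list. The arginine and polyamine list has 3 higher genes in each subset. All counts are by edgeR, and DESeq2 called 2 genes of the glutamine list in rTreg cells.

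The genes whose level over the 8 libraries was most like that of Slc7a10 were Actg2 (Pearson's r = 0.998), Rpusd1 (0.998) and Cables1 (0.998), on log2 CPM. Actg2, a smooth muscle actin, was at a mean of 0.217 and 0.448 CPM in WT and Foxp1-deficient rTreg and 15.1 and 21.9 CPM in aTreg cells, whereas Rpusd1 went only from 9.29 and 9.37 to 14.6 and 15.4 CPM. In all, 700 tested genes had an r over 0.95 with Slc7a10, among them Cebpa at rank 19 (0.994) and Lrp3 at rank 233 (0.978). For Slc7a5 the most alike genes were Exoc1 (0.993), Zfp335os (0.987) and Zfp777 (0.987), and 49 genes had an r over 0.95. Among the transporters r was 0.964 between Slc7a10 and Slc38a1, 0.937 between Slc1a5 and Slc7a10, 0.933 between Slc7a5 and Slc38a2 and 0.926 between Slc1a5 and Slc38a1. The lowest was −0.817, between Slc1a5 and Slc38a2. The points fall into the 2 subsets and share libraries and sequencing depth, so these values only describe the pattern.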

How the data were processed

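Per the submitters' processing notes and the study's methods, paired-end reads from a non-directional kit (NEBNext Ultra) were trimmed with trim_galore, aligned to mm10 with HISAT2 2.0.5, cleared of duplicates with Picard and counted per gene with HTSeq. The authors deposited raw counts and FPKM values. The FPKM equal count over total over gene length, within a relative spread of 0.000538 across libraries. Here edgeR 4.0.16 (R 4.3.3) was run on the counts (TMM, filterByExpr with a minimum count of 10, glmQLFit and glmQLFTest on 4 group means plus the replicate number) with Benjamini-Hochberg adjustment over all 14540 tested genes. A gene passed at an adjusted p under 0.05, with the study's 1.5-fold (genotype) and 2-fold (subset) changes counted beside it. The procedure was tested on simulated data, which held no replicate or sex effect and so did not check the replicate block. The block follows the study's paired analysis, and deviations of libraries of the same number correlated between 0.355 and 0.597. Coordinates are from GENCODE M21 (GRCm38), and sequences from RefSeq GRCm38.p6. DESeq2 1.42.0 and limma 3.58.1 (voom) served as alternatives, among 12 settings and 8 fits with 1 library left out. Floors cover counting error only. Named were all members, up to 3 genes per list with the largest change that passed in each genotype comparison with both pairs in the same direction, and the genes most like Slc7a10 and Slc7a5. The members and lists were chosen with earlier results of these data known. A gene of the sort is not reported here.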

Additional observations from a re-analysis of the deposited data

How the results depend on the processing

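The replicate block decided most calls. Without it 0 transporters passed between genotypes in rTreg and 0 in aTreg cells, 2 between subsets in WT and 2 in Foxp1-deficient cells, while the genes called over the whole table went from 1748 to 300, 1001 to 81, 4631 to 2373 and 5828 to 3482 in these comparisons, and from 48 to 0 for the interaction. For the interaction DESeq2 called 279 genes and the fit with no filter on low counts 573; that fit called 1844 between genotypes in aTreg cells. Between genotypes in rTreg cells, log2 of FPKM plus 1 without a filter gave 0 transporters. In aTreg cells the fit with no filter on low counts gave 3, the libraries of the comparison alone 0, and each FPKM setting 0. With 1 library left out, the number passing was 0 to 1 in rTreg and 0 to 1 in aTreg cells between genotypes, 3 to 6 in WT and 4 to 7 in Foxp1-deficient cells between subsets, and 0 for the interaction. Changes near 0 that were not called turned sign. Slc7a1 between genotypes in aTreg cells was −0.0092 with log2 of FPKM plus 1, with or without a filter, −0.0114 with FPKM plus 0.1, and −0.0857 to 0.118 with 1 library left out. Left-out fits there gave −0.183 to 0.000581 for Slc3a2 and −0.0100 to 0.0918 for Slc7a6. Slc7a6 between subsets in Foxp1-deficient cells was 0.0023 by DESeq2, 0.0020 with median-of-ratios size factors, 0.0309 without a filter, 0.0364 with FPKM plus 1, with or without a filter, 0.0383 with FPKM plus 0.1, and −0.0541 to 0.0461 with 1 library left out. Slc7a11 was under the floor of 3 counts in every library, whatever its depth. The cause of the other differences was not tested.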
